A study of Mus musculus with 6 samples.

Results

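Polyamine synthesis and turnover were examined through 10 genes in basal cells of the back skin epidermis of mice, isolated by flow sorting: Odc1, Amd1, Amd2, Srm, Sms, Sat1, Smox, Oaz1, Oaz2 and Azin1. They are 10 of the 24972 entries of the deposited expression table, were found by their symbols, and all 10 averaged at least 10 normalized counts, the minimum for testing that 12239 genes met. The cKO group held 3 libraries from mice given tamoxifen, 20 ug in each of 3 injections from postnatal day 45 to day 52, and the control group held 3 libraries from mice given vehicle. Every animal of both groups carried p63CreER, a Cre recombinase that is expressed from the p63 gene in basal keratinocytes and acts only with tamoxifen. They also all carried floxed alleles of Piezo1, the gene of a mechanically gated cation channel, and the membrane-targeted fluorescent reporter R26-mTmG. Exposure to tamoxifen and deletion of Piezo1 therefore went together and cannot be told apart. The 10 genes were selected on their normalized counts in these same cKO and control libraries, so their differences are given as a description, with no p-value for any of them. All values below are normalized counts as deposited, and a log2 fold change gives cKO relative to control on the scale log2(value + 1), with the SE from limma.

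Polyamines are small, positively charged molecules that bind RNA, DNA and ion channels and are needed for translation and proliferation. Ornithine decarboxylase makes putrescine, and spermidine synthase and spermine synthase lengthen it with aminopropyl groups that come from decarboxylated S-adenosylmethionine. Acetylation and oxidation break the longer polyamines down again, while antizymes send ornithine decarboxylase to the proteasome and block polyamine uptake, and antizyme inhibitors hold the antizymes back. In skin, ornithine decarboxylase is known for its induction by wounding and tumour promoters and for its activity in growing hair follicles.

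Read depth was uneven. The approximate depth was 1.05 M reads in cKO replicate 1, 14.1 and 15.6 M in the other cKO libraries, and 20.8 to 24.5 M in the controls. In normalized counts, 1 read came to 12.2 in cKO replicate 1, against 0.491 to 0.760 in the other libraries. The library cKO replicate 1 gave the highest or the lowest value for 71.4% of the tested genes. Piezo1 was at 380, 565 and 399 normalized counts in cKO replicates 1, 2 and 3, against 806, 1098 and 1476 in control replicates 1, 2 and 3. The basal keratin Krt5 was at 230864 to 266942 in cKO and at 228148 to 260877 in control libraries, so the defining marker of the labelled cell type was abundant in all 6 libraries. Other basal markers were mixed. Trp63 was higher in each cKO library, at 7880 to 9939 against 5440 to 7312 in controls. Itgb4 was lower in each, at 8306 to 9873 against 10211 to 12063 in controls. Krt14, Itga6 and Col17a1 overlapped. The summed level of 10 T cell markers was 406 to 1207 in cKO and 89.8 to 149 in control libraries. The markers at 0 numbered 2 in cKO replicate 1 and 1 in control replicate 2. Summed Langerhans cell markers (7 of 7 matched, none at 0) were at 4649, 4563 and 14466 in cKO and 3771, 5954 and 5784 in control replicates 1, 2 and 3. Within that sum, Cd74 was at 1008 to 4490 in cKO and 667 to 737 in control libraries. H2-Ab1, H2-Eb1 and Csf1r likewise had each cKO library above each control, while Cd207 and H2-Aa overlapped. Epcam, a large part of the sum, ran the other way, at 1048 to 1812 in cKO and 2080 to 3738 in control libraries. Summed suprabasal markers (7 of 8 matched) overlapped, at 94490 to 120855 in cKO and 59120 to 124383 in control libraries. Among them only Krt1 separated the groups, at 24980 to 37749 in cKO and 10299 to 24228 in control libraries. Summed sebocyte markers were at 6578, 8798 and 9166 in cKO and 8752, 13355 and 14085 in control replicates 1, 2 and 3. Summed hair follicle markers were at 180763 in cKO replicate 1, at 88807 and 96529 in the other cKO libraries and at 104929 to 118901 in controls. Krt15 made up most of that sum, with 161023 in cKO replicate 1. Among these markers only Krt79 separated the groups, at 4561 to 7427 in cKO and 2847 to 4012 in control libraries. Ribosomal protein genes took 14.1% of the signal in cKO replicate 1, while the remaining 5 libraries gave 6.53% to 8.51%. None of the 6 fibroblast and none of the 4 endothelial markers averaged 10 normalized counts. The part of these differences between libraries in the polyamine values was not tested. The labels do not say that each library came from a separate animal.

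The sequences of these genes bear on what the table can show, because Amd1 and Oaz1 each have a near-identical copy that is also listed. Amd1 lies on the minus strand of chromosome 10 at 40287458 to 40302186 (GRCm38) and has 8 exons, and Amd2 lies on the same chromosome and strand at 35708675 to 35711892 in 1 exon. Their main transcripts (GENCODE M21) aligned over 3201 bases with 11 mismatches (99.66% identity), of which 1 fell in the 1002 coding bases. Of all runs of 100 bases in the Amd1 transcript, 73.2% occurred unaltered in Amd2. The coding mismatch is shown in capitals, and the substitution is G31C from Amd1 to Amd2, counted from 1 at the left end of the stretch.
Amd1 (chr10:40290157-40290216, minus strand): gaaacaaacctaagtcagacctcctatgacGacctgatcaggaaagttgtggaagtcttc
Amd2 (chr10:35710735-35710794, minus strand): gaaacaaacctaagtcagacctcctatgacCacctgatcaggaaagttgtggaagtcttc

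The copies have different sequence before their start sites. RefSeq promoter windows (GRCm38.p6) reach from 250 bases before to 50 bases after the start and were found for 8 of the 10 genes. In the upstream 250 bases the longest run shared by Amd1 and Amd2 was 7 bases. A run of 48 bases was shared from base 3 of the Amd1 transcript and base 1 of the Amd2 transcript onward. It reached the end of the Amd1 window, so its full length was not measured here. The 100 bases just before each start are given to show that the loci part at this point.
Amd1 (chr10:40302189-40302288, minus strand): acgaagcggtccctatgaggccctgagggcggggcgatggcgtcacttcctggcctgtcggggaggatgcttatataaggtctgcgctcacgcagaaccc
Amd2 (chr10:35711892-35711991, minus strand): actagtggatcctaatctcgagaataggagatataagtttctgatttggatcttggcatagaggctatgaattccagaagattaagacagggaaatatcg

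Oaz1, on chromosome 10 at 80826656 to 80829290 (plus strand, 6 exons), has a processed pseudogene, Oaz1-ps, on chromosome 17 at 17345456 to 17346140 (minus strand, 1 exon). The pseudogene aligned to the main Oaz1 transcript over 684 bases with 1 mismatch (99.85% identity), and 69.3% of its runs of 100 bases occurred unaltered in Oaz1. That mismatch, G39C from Oaz1 to Oaz1-ps, is in capitals.
Oaz1 (chr10:80826846-80826905, plus strand): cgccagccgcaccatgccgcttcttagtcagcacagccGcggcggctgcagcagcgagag
Oaz1-ps (chr17:17345995-17346054, minus strand): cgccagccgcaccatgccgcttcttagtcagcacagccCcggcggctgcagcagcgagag

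Synthesis begins with Odc1, the gene of ornithine decarboxylase, the first and highly regulated enzyme of the pathway (chromosome 12, 17544794 to 17551505, plus strand). Odc1 was at 3129, 2589 and 2828 normalized counts in cKO replicates 1, 2 and 3, against 2769, 3028 and 2927 in control replicates 1, 2 and 3. The cKO libraries held both the highest and the lowest value, so the groups overlapped fully. The means were 2849 ± 270 in cKO and 2908 ± 130 in control libraries (SD, n = 3 each). The fitted difference of -0.03 (SE 0.17, with 95% limits of -0.42 and 0.35) was above 0 under library totals, quantile normalization and limma-voom and without cKO replicate 2. The limits take in the -0.40 given for Sat1 below. Odc1 has 14 annotated near copies with at least 90% identity over at least 200 bases, of which 1 was listed in the table, at 22.4 to 66.4 in cKO and 35 to 64.0 in control libraries.

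S-adenosylmethionine decarboxylase, which provides the aminopropyl donor, is encoded by Amd1 and Amd2. The row Amd1 was listed at 0, 167 and 0 normalized counts in cKO replicates 1, 2 and 3, against 356, 344 and 677 in control replicates 1, 2 and 3. Each cKO library thus lay below each control library. The row Amd2 was at 2623, 2871 and 2591 in cKO and at 2576, 3050 and 2694 in control replicates 1, 2 and 3, where the groups overlapped. Amd1 thus made up 0%, 5.50% and 0% of the pair in cKO replicates 1, 2 and 3, and 12.1%, 10.1% and 20.1% in control replicates 1, 2 and 3. The row labelled Amd2 held most of the summed signal in every library. How the authors divided reads between the copies is not given in the sources used here, and RefSeq lists Amd1 also as a synonym of Amd2, so the locus behind each row is uncertain.

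Summed over both copies, the decarboxylase was at 2623, 3038 and 2591 normalized counts in cKO and at 2933, 3394 and 3371 in control replicates 1, 2 and 3. Of the cKO libraries, replicate 2 lay above control replicate 1, so the groups overlapped. The sum had a log2 fold change of -0.23 (SE 0.17, 95% limits -0.63 and 0.16), with means of 2751 ± 250 in cKO and 3233 ± 260 in control libraries (SD, n = 3 each). Quantile normalization brought it to -0.06. The sum does not cover every copy. The pseudogenes Amd-ps3 and Amd-ps4, which were not listed, matched Amd1 over 1005 bases at 99.9% and 99.5% identity. Their part in the values was not tested. No fold is given for Amd1 alone, since its fitted value rests on the pseudocount in libraries listed at 0.

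**Figure D1:**
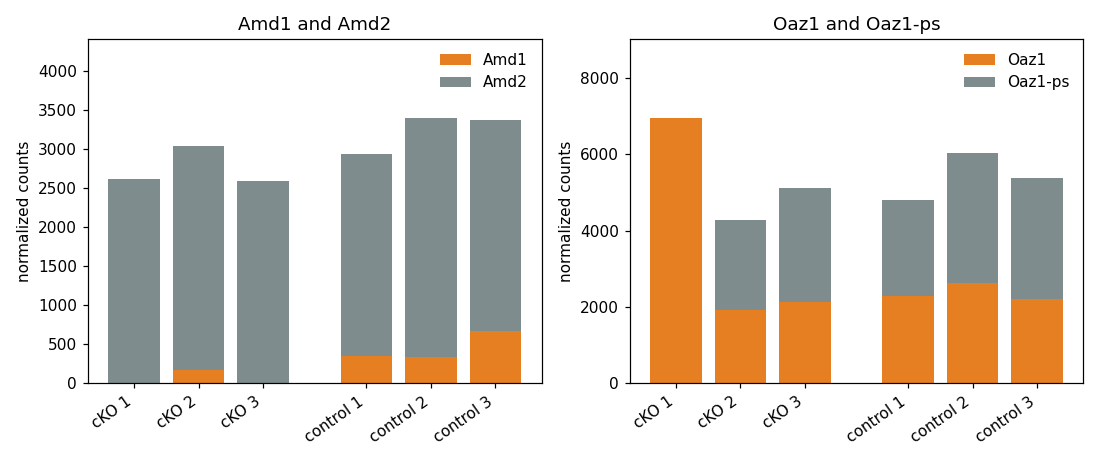
Normalized counts of Amd1 and Amd2 (left) and of Oaz1 and its processed pseudogene Oaz1-ps (right), stacked in each of the 3 cKO and 3 control libraries. Amd1 is at 0 in cKO replicates 1 and 3, and Oaz1-ps is at 0 in cKO replicate 1, where Oaz1 reaches 6941.

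Of the synthases, Srm did not separate the groups and Sms did. Srm, spermidine synthase (chromosome 4, 148591503 to 148594993, plus strand), was at 649, 367 and 475 normalized counts in cKO and at 392, 439 and 378 in control replicates 1, 2 and 3. The cKO libraries spanned the whole control range. It differed by 0.27 on the log2 scale (SE 0.24, 95% limits -0.29 and 0.83) and 0.05 without cKO replicate 1, where the Srm value of 649 stood for only about 53.0 reads. Sms, spermine synthase (chromosome X, 157443855 to 157492287, minus strand), was at 379, 465 and 351 in cKO replicates 1, 2 and 3, against 471, 606 and 632 in control replicates 1, 2 and 3. Every cKO value was under the lowest control value, though cKO replicate 2 and control replicate 1 nearly met. The Sms value of 379 in cKO replicate 1 stood for only about 31.0 reads. The means were 398 ± 59.3 in cKO and 570 ± 86.5 in control libraries (SD, n = 3 each), a fitted difference of -0.51 (SE 0.21) with 95% limits of -0.99 and -0.04. Over 20 alternative settings the Sms value ran from -0.71 to -0.39. Sms has 6 annotated near copies with at least 90% identity over at least 200 bases, of which 1 was listed, at 0 to 2.15. The pseudogene Sms-ps, which was not listed, matched Sms over 1101 bases at 100% identity. The part of such copies in the Sms values was not tested. The ratio of Srm to Sms in normalized counts was 1.71, 0.788 and 1.35 in cKO and 0.832, 0.724 and 0.597 in control replicates 1, 2 and 3, with cKO replicate 2 inside the control range.

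Turnover is served by Sat1 and Smox. Sat1, the spermidine and spermine acetyltransferase that marks polyamines for export or oxidation (chromosome X, 155213132 to 155216449, minus strand), was at 2993, 3019 and 2520 normalized counts in cKO replicates 1, 2 and 3. It was at 3488, 3389 and 4470 in control replicates 1, 2 and 3. The groups did not overlap, and control replicate 3 stood above the rest. The means were 2844 ± 281 in cKO and 3782 ± 598 in control libraries (SD, n = 3 each), a fitted difference of -0.40 (SE 0.19) with 95% limits of -0.85 and 0.04. Without control replicate 3 the Sat1 value was -0.28, and with quantile normalization it was -0.23. In bulk libraries, fewer cells of a type that holds a transcript and less of it per cell cannot be told apart.

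Smox, spermine oxidase (chromosome 2, 131491496 to 131525922, plus strand), turns spermine back into spermidine and releases hydrogen peroxide. Smox was at 705, 421 and 431 normalized counts in cKO and at 524, 847 and 1320 in control replicates 1, 2 and 3. The shallow cKO replicate 1 lay above control replicate 1, so the groups overlapped. It differed by -0.73 on the log2 scale (SE 0.36, 95% limits -1.57 and 0.11), -0.40 without control replicate 3 and -0.97 without cKO replicate 1.

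Sms and Sat1 are X-linked, and the libraries differed in sex. Xist, the RNA of the inactive X chromosome, was at 7773 and 17829 normalized counts in cKO replicates 1 and 2 and at 13994 in control replicate 1. It was at 1.05 in cKO replicate 3 and at 2.82 and 2.85 in control replicates 2 and 3. Among the libraries with Xist, Sat1 was at 2993 and 3019 in cKO against 3488 in the control, and Sms was at 379 and 465 in cKO against 471 in the control. Among those without it, Sat1 was at 2520 in cKO against 3389 and 4470 in controls, and Sms at 351 in cKO against 606 and 632 in controls. Each of these subsets has 1 library on one side, and Sms nearly coincided in cKO replicate 2 and control replicate 1. In a fit with a term for Y-linked transcripts, the fitted difference was -0.49 for Sms (SE 0.23) and -0.42 for Sat1 (SE 0.22). The imbalance also bears on the genes that are not X-linked. With the same term, Azin1 was -0.87 (SE 0.35), Smox -0.62 (SE 0.40) and Amd1 plus Amd2 -0.22 (SE 0.19). Srm was 0.27 (SE 0.28), Oaz1 0.26 (SE 0.52), Oaz2 0.08 (SE 0.19) and Odc1 -0.02 (SE 0.19). Beyond that fit, the part of sex in the values of the polyamine genes was not tested.

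**Figure D2:**
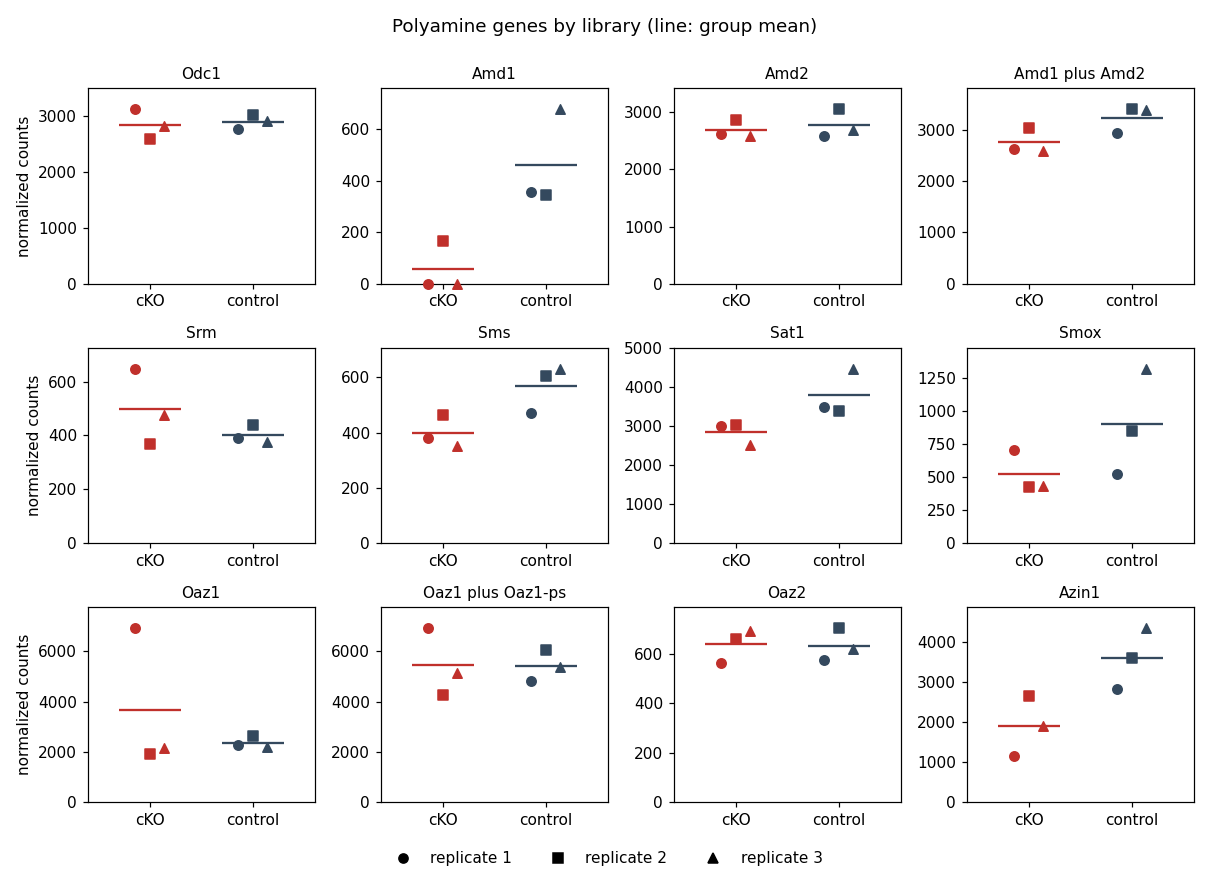
Normalized counts of the 10 polyamine genes and of the sums Amd1 plus Amd2 and Oaz1 plus Oaz1-ps in cKO (left in each panel) and control libraries (right). Symbols mark replicates 1 to 3 and lines the group means; Azin1, Sat1, Sms and Amd1 have their cKO points under the lowest control point.

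The regulators of ornithine decarboxylase were read out next. Oaz1 encodes the abundant antizyme, whose translation needs a ribosomal frameshift that polyamines promote. Oaz1 was at 6941, 1917 and 2142 normalized counts in cKO and at 2279, 2622 and 2203 in control replicates 1, 2 and 3. The value of cKO replicate 1 stood far above all others, and in the same library Oaz1-ps was listed at 0, against 2366 and 2984 in cKO replicates 2 and 3 and 2537, 3416 and 3167 in control replicates 1, 2 and 3. Oaz1 made up 41.8% and 44.8% of the pair in cKO replicates 3 and 2 and 41.0% to 47.3% in the controls. Summed with the pseudogene, a sum chosen after the values were seen, Oaz1 was at 6941, 4283 and 5126 in cKO and at 4816, 6038 and 5370 in control replicates 1, 2 and 3. The sum of cKO replicate 1 was still the highest. The log2 fold change was 0.37 for Oaz1 alone (SE 0.46), -0.22 without cKO replicate 1 and -0.01 for the sum with all libraries (SE 0.23, 95% limits -0.55 and 0.53).

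Oaz2, a second antizyme of lower abundance (chromosome 9, 65668001 to 65690300, plus strand), was at 561, 660 and 693 normalized counts in cKO and at 575, 705 and 619 in control replicates 1, 2 and 3. The groups overlapped over nearly their whole range. It differed by 0.01 on the log2 scale (SE 0.18, 95% limits -0.40 and 0.42), and the sign was negative with REML array weights and without cKO replicate 2, cKO replicate 3, control replicate 1 or control replicate 3.

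Azin1, the antizyme inhibitor, resembles ornithine decarboxylase but has no enzyme activity and binds antizyme in its place (chromosome 15, 38487427 to 38519266, minus strand). Azin1 was at 1155, 2662 and 1907 normalized counts in cKO replicates 1, 2 and 3, against 2834, 3616 and 4359 in control replicates 1, 2 and 3. No cKO library reached the lowest control, and cKO replicate 2 and control replicate 1 were closest. The means were 1908 ± 753 in cKO and 3603 ± 763 in control libraries (SD, n = 3 each), and the fitted difference of -0.98 (SE 0.32, 95% limits -1.72 and -0.23) was the most negative of the genes with no library at 0. It was -0.66 without cKO replicate 1, in which Azin1 rested on about 94.4 reads, and -0.51 without both that library and control replicate 3. The libraries ranked for Azin1 in the same order as for Piezo1, an order shared by 177 of the 12239 tested genes (1.45%). Only the 698 tested genes (5.70%) with every cKO value under the lowest control value could have this order. Azin1 was selected on these same counts, so nothing is read from the shared order. The ratio of Azin1 to Odc1 in normalized counts was 0.369, 1.03 and 0.674 in cKO and 1.02, 1.19 and 1.49 in control replicates 1, 2 and 3. Against the Oaz1 sum, Azin1 stood at 0.166, 0.622 and 0.372 in cKO and at 0.588, 0.599 and 0.812 in control replicates 1, 2 and 3, where cKO replicate 2 lay inside the control range.

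**Figure D3:**
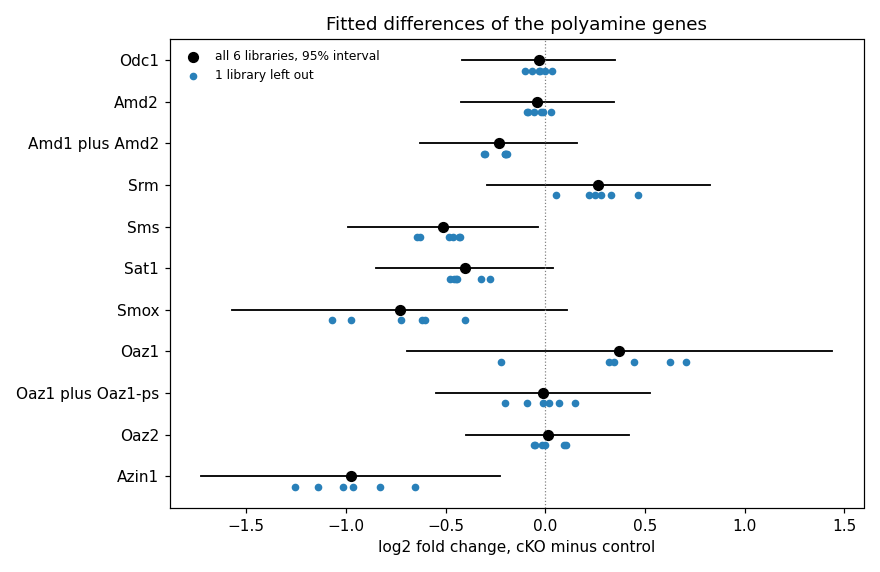
Log2 fold changes (cKO minus control) of the polyamine genes and of both sums, with limma's 95% intervals (black) and the values with 1 library left out (blue). Azin1 lies at -0.98, while Odc1, Amd2, Oaz2 and the Oaz1 sum lie within 0.04 of 0; Amd1 alone is not drawn because libraries are at 0.

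Counted together, 4 of the 10 genes (Amd1, Sms, Sat1 and Azin1) had cKO values that stayed under the lowest control value, 0 had them above the highest, and 6 overlapped. Amd1 is counted here by its own row, whose locus is uncertain, and the sum of Amd1 and Amd2 overlapped. Over all tested genes the share without overlap was 5.70% with lower cKO and 5.16% with higher cKO values. Because the genes were chosen with this contrast known, nothing is read from the difference between these shares. Fitted values were lower in cKO for 7 of the 10 genes and higher for 3, and the count of lower ones ran from 5 (library totals, quantile normalization and limma-voom) to 9 (REML array weights) over 20 alternative settings. The median log2 fold change was -0.22 over the 10 genes and -0.03 over all tested genes. Over the whole table, 0 of 12239 genes (0%) passed an adjusted p of 0.05 in limma, where the smallest adjusted p = 0.744, and 0 passed in limma-voom, so the 10 genes hold no call. An unadjusted p under 0.05 was reached in limma by 423 genes with lower cKO values (3.46%) and 180 with higher ones (1.47%), and in limma-voom by 223 with lower and 433 with higher ones.

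Per length, the genes differed widely in abundance. On a scale of normalized counts per kb of annotated exon, the Oaz1 sum stood at 5075 ± 1265 in cKO and 5035 ± 570 in control libraries (SD, n = 3 each here and below). Sat1 followed with 2404 ± 237 in cKO and 3197 ± 505 in controls, and Odc1 with 1290 ± 122 in cKO and 1317 ± 59.1 in controls. The decarboxylase pair summed to 858 ± 77.9 in cKO and 1009 ± 81.2 in controls, and Azin1 to 379 ± 150 in cKO and 716 ± 152 in controls. Srm gave 371 ± 107 in cKO and 301 ± 23.9 in controls, Oaz2 314 ± 33.7 in cKO and 311 ± 32.5 in controls, and Smox 167 ± 52 in cKO and 289 ± 129 in controls. With Amd1 and Amd2 summed, Sms was lowest, at 107 ± 16.0 in cKO and 153 ± 23.3 in controls. The row Amd1 alone, which is at 0 in 2 cKO libraries, stood at 143 ± 58.9 in controls, within its spread of Sms. In cKO the neighbours Azin1, Srm and Oaz2 did not differ beyond their spread, nor did Oaz2, Srm and Smox in controls. If only its own row is counted, Oaz1 stood at 3414 ± 2642 per kb in cKO, a mean above Sat1 that rests on cKO replicate 1, and at 2205 ± 208 in controls, below Sat1.

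The wider metabolism was described with 55 genes in 7 lists written from textbook knowledge, of which 38 were tested. None of the 38 passed an adjusted p of 0.05 in limma and none in limma-voom, and 3 had an unadjusted p under 0.05 in each. Fitted values were higher in cKO for 17 and lower for 21 (median log2 fold change -0.06, against -0.03 over all tested genes). The groups did not overlap for 3 genes that were higher in cKO (Mycl, Slc18b1 and Eif5a2) and 3 that were lower (Mat2a, Oat and Mxd4), beside 5.16% and 5.70% of all tested genes. Slc18b1 and Mxd4 were named after their values were seen. Slc18b1 was at 95.6 in cKO replicate 1, where 1 read came to 12.2, so that value rested on few reads.

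Precursor supply accounts for Mat2a and Oat. Mat2a, which makes S-adenosylmethionine, was at 2798, 3668 and 2283 normalized counts in cKO and at 3848, 4366 and 5381 in control replicates 1, 2 and 3 (log2 fold change -0.65, SE 0.24). Oat, the ornithine aminotransferase, was at 2097, 3217 and 2751 in cKO and at 3728, 3416 and 3888 in control replicates 1, 2 and 3 (-0.47, SE 0.21). The cationic amino acid transporter Slc7a1 gave a log2 fold change of -0.76 (SE 0.34), with overlapping groups. Ahcy, which clears S-adenosylhomocysteine, was at 74.0, 190 and 413 in cKO and at 523, 446 and 394 in control replicates 1, 2 and 3, so cKO replicate 3 lay within the control range. Got1 differed by 0.004 on the log2 scale (SE 0.20). Of 7 tested genes of ornithine and arginine supply 4 were lower and 3 higher, and of 10 in S-adenosylmethionine supply and salvage 4 were lower and 6 higher.

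The remaining lists were small or mixed. In the Myc network, whose founding member is a classical activator of Odc1 transcription, fitted values of 7 of 8 tested genes were lower and 1 higher in cKO. Mycn counts as lower only through its 0 in cKO replicate 1. It was at 30.0 and 50.3 in cKO replicates 2 and 3, above its 21.8 to 29.0 in the controls. Myc itself was at 2443, 4501 and 4163 normalized counts in cKO and at 4488, 4607 and 5431 in control replicates 1, 2 and 3 (log2 fold change -0.43, SE 0.26). The value of cKO replicate 2 lay just above control replicate 1, so the groups overlapped. Mycl was the exception, at 704, 612 and 763 in cKO and 544, 443 and 350 in control replicates 1, 2 and 3 (0.65, SE 0.21). The antagonists of Myc Mxd1 and Mxi1 gave -0.81 (SE 0.38) and -0.19 (SE 0.24). Among transport genes, the endolysosomal polyamine exporter Atp13a2 gave 0.51 (SE 0.25) and its relative Atp13a3 -0.87 (SE 0.39). The heavy chain gene of amino acid exchangers Slc3a2 gave -0.08 (SE 0.19) and caveolin-1, Cav1, -0.49 (SE 0.32), and 8 of the 14 listed transport genes were too low to test.

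Spermidine also supplies the hypusine residue of the translation factor eIF5A. Eif5a was at 8684, 7224 and 7680 normalized counts in cKO and at 6980, 9286 and 9554 in control replicates 1, 2 and 3, with overlapping groups (log2 fold change -0.12, SE 0.21). Its paralog Eif5a2 was at 75.6, 55.4 and 77.5 in cKO and at 37.2, 49.9 and 24.1 in control replicates 1, 2 and 3, without overlap (0.93, SE 0.41). The Eif5a2 value of cKO replicate 1 rested on few reads, since 1 read came to 12.2 there. Dohh, the hydroxylase that completes hypusine, gave 0.03 (SE 0.35). Of the catabolic genes, the acetylpolyamine oxidase Paox gave 0.25 (SE 0.21) and the deacetylase Hdac10 0.12 (SE 0.23). Azin2, the other antizyme inhibitor, was low in every library, at 0, 20.7 and 22.6 in cKO and 44.9, 21.3 and 24.4 in control replicates 1, 2 and 3. Oaz3, the third antizyme, and the acetyltransferase relatives Sat2 and Satl1 were too low to test.

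**Figure D4:**
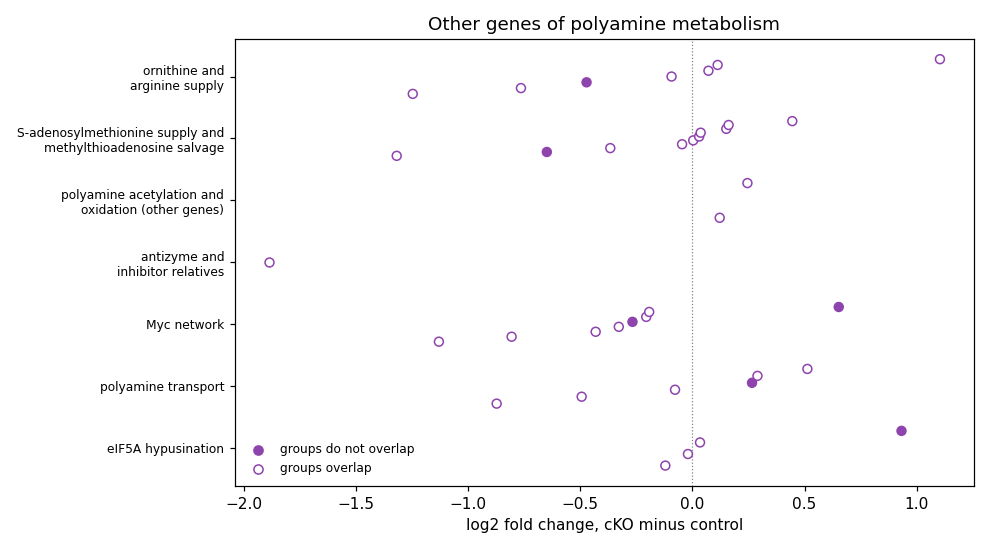
Log2 fold changes (cKO minus control) of the 38 tested genes in 7 lists of polyamine metabolism, 1 point per gene. Filled points mark the 6 genes whose groups do not overlap, 3 on each side of 0. The points of Azin2 (the leftmost) and Mycn rest on a value of 0 in cKO replicate 1.

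The profiles over the 6 libraries were last compared with those of other tested genes averaging at least 50 normalized counts, leaving out names that end in Rik or read Gm plus digits. The 3 genes most like Odc1 by Pearson's r of log2 values were Mapk13 (0.989), Sap18b (0.988) and Psmc2 (0.985), out of 10036 compared. For the sum of Amd1 and Amd2 they were Tnks1bp1 (0.989), Ifngr1 (0.989) and Siah1a (0.989), out of 10034. They were picked as the highest of many, over libraries that share the depth differences above, so no test is attached. An r above 0.95 with the profile was reached by 40 genes for Odc1 and by 113 for the sum.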

How the data were processed

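The authors deposited normalized counts per gene symbol, a signal that is never negative; STAR, DESeq2 and GRCm38 are named without versions per the submitters' processing notes. No source used here gives the annotation, the counting program or the use of strand. A directional kit and poly(A) selection were used, per the labels' protocols. Groups and replicate numbers came from the sample titles. The worth of 1 read was taken as the commonest small value of a library, and depth as the total divided by it. Between 20 and 100 reads only 9.86% to 13.7% of values lay within 0.05 of a whole read, so whole reads were not recovered and the count tests planned for that case were not run.

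Values were tested as log2(value + 1). This can understate changes of weakly expressed genes, while the fitted value of a gene with a library at 0 rests on the pseudocount. The test was limma 3.58.1 (R 4.3.3, statmod 1.5.0, trend, robust, two-sided) over 12239 genes with a mean of at least 10. It used all 6 libraries and no covariates, with Benjamini-Hochberg adjustment at 0.05. Amd1 plus Amd2 replaced both rows in a fit of its own, and Oaz1 plus Oaz1-ps likewise. SE and 95% intervals are limma's. Positions, exon lengths and transcripts came from GENCODE M21 (GRCm38), near copies from blastn 2.17.0 and promoters from RefSeq (GRCm38.p6). The fit was tested on simulated data with the depths of these libraries. Apart from the changes put in, all simulated libraries shared the same gene means and spread. The other differences between the real libraries were absent, so that test does not show how the fit handles them. The genes and lists were chosen with earlier results of these data known. Named genes are the 10, Piezo1, level checks, per list the 2 of highest mean and the 2 of smallest unadjusted p, and the 3 most alike; Oaz1-ps was added after its values were seen. Alternatives were pseudocounts, filters, scalings, weights, limma-voom, a replicate block, a term for Y-linked transcripts and leaving out libraries.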

Additional observations from a re-analysis of the deposited data

How the results depend on the processing

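The fits called 0 genes with all libraries and under 18 of 20 alternatives. Array quality weights from limma's REML estimate, which set cKO replicate 1 at 0.111 and control replicate 2 at 8.98, gave 1568 calls, among them Amd1, Sms, Azin1 and Smox (all lower in cKO), and 8 of the other pathway genes instead of 0. That estimate stopped before it converged, and limma's gene-by-gene estimate, added after seeing the data, set the same libraries at 0.134 and 3.95 and gave 0 calls, so the 1568 are not relied on. Leaving out single libraries gave 0 to 1 calls, the 1 call being Amd1 without cKO replicate 2, where both cKO values left are 0, so it is not relied on. Sms, Sat1, Smox, Azin1 and Amd1 plus Amd2 stayed lower and Srm higher in cKO in all 20. Some of these values came close to 0. Srm was 0.009 (SE 0.21) without control replicate 3 and cKO replicate 1 together. Amd1 plus Amd2 was -0.06 (SE 0.16) with quantile normalization. The median of all genes was 0.10 in limma-voom against -0.03 in the fit used here. Signs turned for Odc1, Amd2, Oaz1, Oaz2 and the Oaz1 sum. Odc1 was 0.012 with library totals, 0.13 with quantile normalization, 0.015 with limma-voom, and -0.10 to 0.034 with 1 library left out. Amd2 was 0.0056, 0.12 and 0.027 in the same settings and -0.091 to 0.031. Oaz1, at 0.37 with all libraries, turned where cKO replicate 1 was left out or given less weight: it was -0.23 with the REML and -0.18 with the gene-by-gene weights, -0.27 without control replicate 3 and cKO replicate 1 together (added after seeing the data), and -0.22 to 0.71 with 1 library left out. Oaz2 was -0.010 with the REML weights and -0.055 to 0.10. The Oaz1 sum was 0.033 with library totals, 0.10 with quantile normalization, 0.0027 with TMM, 0.036 with limma-voom, 0.014 with a term for Y-linked transcripts, and -0.20 to 0.15. The causes were not tested. The count tests planned for whole reads were not run, since whole reads were not recovered. With the replicate block 0 genes were called and the sum of Amd1 and Amd2 was -0.23. Deviations of same-numbered libraries correlated at 0.09, -0.15 and 0.07. With 3 libraries per group and cKO replicate 1 shallow, this cannot tell whether the numbers pair the samples. Depth limits cKO replicate 1, where 3 reads come to 36.7 normalized counts.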
